A study of Mus musculus with 12 samples.

Results

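Loss of the exonuclease Trex1 was examined in mouse hearts that carried a single functional allele of STING. The 2 hearts labelled Trex-/- STING+/- (called KO hearts) were set against the 2 labelled Trex+/+ STING+/- (called WT hearts), by the genotype given in the title, source and genotype labels; these are 4 of the 12 arrays of the series. Both groups are untreated, share a mixed C57BL6/129Sv strain background and, by these 3 labels, lack 1 STING allele. By the same 3 labels the comparison differs in Trex1 only. The other arrays, which enter the fit and are used below for comparison, are Trex1 KO and Trex1 WT hearts on STING +/+ and on STING -/-, with 2 arrays in each group. The sources used here give no ages for the mice. A further free-text label gives another STING genotype for all 4 of these arrays (+/+ for both KO hearts and for WT array 1, -/- for WT array 2), and the grouping used here follows the 3 labels that give STING +/-. Total RNA was labelled as biotinylated cRNA and hybridised to Illumina bead arrays, and levels are given as log2 signal after normalization. A level is comparable between arrays for 1 probe, and not between probes.

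Trex1 degrades DNA in the cytosol. Cytosolic DNA is bound by cGAS, which makes the cyclic dinucleotide that activates STING at the endoplasmic reticulum; STING in turn recruits the kinase TBK1 and the factor IRF3, which switch on type I interferon genes. Secreted interferon signals through its receptor to transcription factors, STAT2 and IRF9 among them, that bind the interferon-stimulated response element, and the genes with that element encode antiviral effectors, antigen-presentation proteins and chemokines. In mice without Trex1 the heart is a main site of inflammation.

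Of 15561 features tested, 177 rose and 20 fell in KO hearts (limma, Benjamini-Hochberg adjusted p under 0.05). They are 1.14% and 0.129% of the features, 1.27% together. Of the 197 called features, 166 carry 1 gene symbol, 147 of them higher and 19 lower. At an unadjusted p under 0.05 there were 1821 of the 15561 features, and 6902 of the 15561 had a positive difference. The counts in gene lists below are to be read beside these numbers over all features. For all 197 the 2 KO arrays did not overlap the 2 WT arrays; over all features both KO arrays lay above both WT arrays in 18.9% and below both in 25.9%. For 164 of the 177 risen features the dimmer KO array was over 2-fold above the brighter WT array, and 53 were above background on neither WT array. The counts rest on few arrays: 52 features were called without KO array 1, 316 without KO array 2, 55 without WT array 1 and 56 without WT array 2.

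Promoters of the genes that rose were searched for the interferon-stimulated response element in a short form, TTTC, any 2 bases and TTTC again, or on the other strand GAAA, any 2 bases and GAAA, in windows of 250 bases before to 50 after the transcription start (RefSeq, GRCm38.p6). A window held the motif in 34 of the 113 risen genes with a window (30.1%), in 0 of 13 lower genes, in 376 of the 9746 tested genes (3.86%) and in 1079 of all 27025 genes (3.99%). The 120 bases before the start of 4 of the 15 largest rises that hold a match are shown 5′ to 3′ on the gene's strand, with matches and overlapping matches in capitals. They are shown because they are the stretches in which the letters of the element stand in front of strongly risen genes; a match is a description and not a site.
Isg15 (chr4:156200819-156200938, minus strand): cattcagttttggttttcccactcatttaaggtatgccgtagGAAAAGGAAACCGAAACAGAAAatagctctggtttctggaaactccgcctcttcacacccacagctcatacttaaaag
Apol9a (chr15:77411081-77411200, minus strand): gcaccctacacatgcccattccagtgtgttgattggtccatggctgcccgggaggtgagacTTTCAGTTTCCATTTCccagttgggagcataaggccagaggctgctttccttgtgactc
Igtp (chr11:58199436-58199555, plus strand): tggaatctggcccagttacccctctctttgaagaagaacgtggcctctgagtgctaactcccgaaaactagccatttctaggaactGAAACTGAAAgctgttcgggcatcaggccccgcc
Phf11a (chr14:59297523-59297642, minus strand): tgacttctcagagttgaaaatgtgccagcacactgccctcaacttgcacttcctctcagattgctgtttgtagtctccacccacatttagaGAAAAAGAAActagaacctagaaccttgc
The Isg15 stretch holds 3 overlapping matches, the Apol9a stretch 2, and the Igtp and Phf11a stretches 1 each. The window of Apol9b holds the same pair of matches as that of Apol9a. The stretch of Fcgr4, not shown, holds 1 match. Usp18, Ccl5 and Gbp10, also among the 15 largest rises, had no window and were not searched. The other genes among the 15 largest rises lack a match in the 120 bases. The windows of Plac8, the largest rise, and of Irf7, Ifit2 and Oasl1 hold 0 matches. Those of Ifit3 and Cxcl10 hold a match, but 0 within the 120 bases before the start.

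The targeted gene separates the groups. On probe ILMN_3131766, Trex1 read 5.55 and 5.65 in KO hearts, against 7.34 and 6.99 in WT hearts. On probe ILMN_2509737 it read 6.79 and 7.30 in KO hearts, against 8.16 and 7.85 in WT hearts (-0.96 ± 0.29, SE; adjusted p = 0.202), and ILMN_2442241 was above background on 0 of the 12 arrays. Both readable probes were lower on each KO array than on each WT array; the sources used here do not say where they lie relative to the deleted part. Sting1 read 5.75 and 5.05 in KO hearts, against 4.79 and 5.24 in WT hearts, which overlap. It was close to background on these arrays and cannot check the STING label.

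Each array had 38.3% to 44.7% of its 45281 probes above background, and the 2 arrays of a group correlated at 0.9818 (KO) and 0.9773 (WT) over the features. Nothing in the labels says that the 2 samples of a group came from separate mice, so p-values measure only the spread between these samples, and the number of arrays limits the precision. All 4 arrays lacked Xist (4.34 to 4.86) and carried the Y-linked Eif2s3y (9.79 to 10.57), so these 4 did not differ in sex markers, although arrays of the other genotypes did. KO array 2 carried atrial transcripts, with a mean over 12 atrial markers of 8.96 against 7.60 on KO array 1 and 7.53 and 7.36 on the WT arrays. WT array 1 stood apart by Hnrnpa2b1, an RNA-binding protein gene chosen after its values were seen. This gene read 11.32 and 11.41 in KO hearts, against 8.47 and 11.51 in WT hearts. Liver transcripts varied within both groups, with list means of 9.30 and 5.54 on the KO arrays, against 5.04 and 8.04 on the WT arrays. Without KO array 2 and WT array 1 together, 166 features rose and 5 fell.

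Antiviral effectors were the list with the most called rises. Of 48 measured members of the 57 listed, 22 rose, 0 fell and 26 were not called, where 1.14% of all features rose. Their median difference was 1.68 on the log2 scale, against -0.05 over all features. Of the 48, 46 were positive, where 6902 of all 15561 features were. In 44 of them both KO arrays lay above both WT arrays, where 18.9% of all features did. The count was 10 without KO array 1, 29 without KO array 2, 8 without WT array 1 and 8 without WT array 2. In these bulk samples, more RNA per cell and more cells of a type that expresses a gene cannot be told apart.

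Apol9a, a member of the apolipoprotein L family, read 10.40 and 9.29 in KO hearts, against 4.46 and 4.65 in WT hearts, where it was not above background. Its level was at least 27.3-fold higher in KO hearts, and the fitted difference was 5.29 ± 0.32 (adjusted p = 0.000203). Its close relative Apol9b read 10.07 and 8.72 in KO hearts, against 4.39 and 4.54 in WT hearts. The 2 genes are nearly identical in sequence, so their probes may share transcripts, and they count as an uncertain pair.

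Ifit3, which binds foreign RNA together with other IFIT proteins, read 13.69 and 12.50 in KO hearts, against 8.62 and 8.13 in WT hearts, a 26.4-fold difference (4.72 ± 0.43, adjusted p = 0.000912). Its relative Ifit2 read 12.03 and 10.82 in KO hearts, against 7.12 and 7.37 in WT hearts. Oasl1, an oligoadenylate synthetase-like protein, read 9.46 and 8.41 in KO hearts, against 5.00 and 5.19 in WT hearts (3.84 ± 0.33). In each of these the KO arrays were far apart from the WT arrays and KO array 1 was the brighter. Ifi27, a small mitochondrial interferon-induced protein, had KO arrays closer to each other, with 14.52 and 14.34 in KO hearts, against 11.03 and 10.78 in WT hearts (3.52 ± 0.24, adjusted p = 0.000376). Bst2, which tethers budding virus to the cell surface, read 9.77 and 10.04 in KO hearts, against 7.51 and 7.13 in WT hearts, and is one of the few called rises that were brighter on KO array 2. Bst2 lost its call without KO array 1, without WT array 1 and without WT array 2 (adjusted p over 0.05), while the other genes of these 2 paragraphs kept theirs with any 1 of the 4 arrays left out.

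Plac8, a small cysteine-rich protein of leukocytes and other cells, was the largest rise of all. It read 10.79 and 9.45 in KO hearts, against 4.67 and 4.51 in WT hearts, at least 33.0-fold higher in KO hearts (5.53 ± 0.55, adjusted p = 0.00125). Phf11a read 9.01 and 7.46 in KO hearts, against 4.48 and 4.41 in WT hearts, and likewise was above background on neither WT array. Both kept their call with any 1 array left out.

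**Figure D1:**
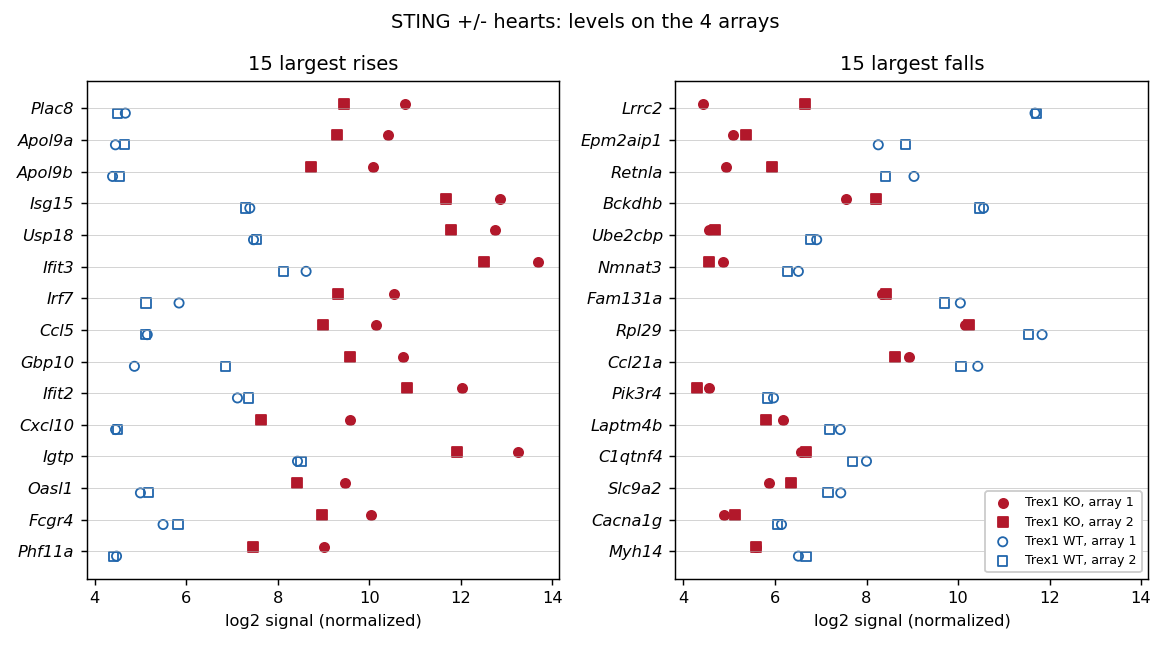
Log2 signal (horizontal axis) on the 4 STING +/- arrays of the 15 largest rises (left) and 15 largest falls (right) among called genes with 1 symbol, predicted genes left out; filled red marks are Trex1 KO, open blue marks Trex1 WT, circles array 1 and squares array 2. For every rise shown KO array 1 lies right of KO array 2, and the WT arrays lie furthest apart in Gbp10.

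The ISG15 conjugation system attaches the ubiquitin-like protein ISG15 to other proteins. Of its 4 measured members of 5 listed, 3 rose, 0 fell and 1 was not called. Isg15 itself read 12.85 and 11.68 in KO hearts, against 7.39 and 7.29 in WT hearts, a 30.4-fold difference (4.92 ± 0.49, adjusted p = 0.00125). Usp18, the protease that removes ISG15 and also dampens interferon receptor signalling, read 12.74 and 11.79 in KO hearts, against 7.47 and 7.54 in WT hearts (27.1-fold). Uba7, the activating enzyme, read 10.46 and 9.79 in KO hearts, against 8.63 and 8.08 in WT hearts, a smaller rise of 3.40-fold (adjusted p = 0.0148). The conjugating enzyme Ube2l6 had 8.87 and 8.38 in KO hearts, against 6.32 and 6.92 in WT hearts, without overlap, at an adjusted p of 0.154. Uba7 lost its call without KO array 1 and without WT array 2.

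No measured interferon gene was called. Of 19 ligands listed 8 were measured, 3 of them above background on none of the 4 arrays, and 0 were called by limma in either direction (0 at an unadjusted p under 0.05), with a median difference of -0.04, and 0 of them had both KO arrays above both WT arrays. Of 20 measured receptors and signalling genes (22 listed), 4 rose and 0 fell, with a median of 0.39. Irf7, the factor that amplifies interferon-alpha induction, read 10.54 and 9.31 in KO hearts, against 5.85 and 5.12 in WT hearts (21.7-fold, 4.44 ± 0.49, adjusted p = 0.00193). Irf9 and Stat2, which encode transcription factors of the interferon response, rose less. Irf9 read 10.16 and 9.57 in KO hearts, against 7.98 and 8.25 in WT hearts (3.37-fold). Stat2 read 7.99 and 7.20 in KO hearts, against 5.93 and 5.82 in WT hearts (3.29-fold). Irf7 kept its call with any 1 array left out, and Irf9 and Stat2 kept theirs only without KO array 2.

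Of 28 measured genes of cytosolic nucleic acid sensing (30 listed), 3 rose and 0 fell, with a median of 0.34. Dhx58, an RNA helicase that tunes RIG-I-like receptor signalling, read 8.22 and 7.15 in KO hearts, against 5.96 and 4.88 in WT hearts (2.26 ± 0.40, adjusted p = 0.0267). Other probes of Dhx58 gave 0.06 ± 0.10, 2.25 ± 0.39 and 1.99 ± 0.39. Samhd1, a nucleotide hydrolase that is another gene of Aicardi-Goutières syndrome beside Trex1, read 9.45 and 8.76 in KO hearts, against 7.89 and 7.60 in WT hearts (1.36 ± 0.25, adjusted p = 0.031). Other probes of Samhd1 gave 1.43 ± 0.31 and 0.24 ± 0.37. The endosomal RNA receptor gene Tlr3 read 6.66 and 6.10 in KO hearts, against 5.06 and 5.07 in WT hearts (1.32 ± 0.23). The DNA sensor gene Cgas, chosen after its values were seen, had 7.57 and 6.86 in KO hearts, against 5.56 and 6.26 in WT hearts (adjusted p = 0.0734). The count of 3 was 0 without KO array 1, 6 without KO array 2, 1 without WT array 1 and 0 without WT array 2.

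The interferon-inducible GTPases act on membranes around intracellular pathogens. Of 13 measured (17 listed), 7 rose, 0 fell, and all 13 differences were positive, with a median of 2.37. Igtp, a member of the immunity-related GTPases, read 13.24 and 11.93 in KO hearts, against 8.43 and 8.51 in WT hearts (17.3-fold, 4.11 ± 0.39, adjusted p = 0.000937). Irgm2, a regulator of that family, read 13.01 and 11.64 in KO hearts, against 8.88 and 9.35 in WT hearts (9.27-fold). Gbp3 and Gbp2 are guanylate-binding proteins. Gbp3 read 12.79 and 11.41 in KO hearts, against 8.10 and 8.83 in WT hearts (12.4-fold). Gbp2 read 11.98 and 10.86 in KO hearts, against 8.93 and 8.86 in WT hearts (5.76-fold), and 1 of its 2 other probes gave -0.20 ± 0.24. Gbp10, a further guanylate-binding protein gene, is not in this list or its counts. It read 10.74 and 9.59 in KO hearts, against 4.87 and 6.86 in WT hearts, the widest spread between WT arrays among the largest rises (4.30 ± 0.71). GBP genes are similar in sequence, so a probe may also pick up a relative. The list had 3 rises without KO array 1, 9 without KO array 2, 2 without WT array 1 and 4 without WT array 2.

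Most measured genes of class I antigen presentation rose. Of 22 measured genes (26 listed), 14 rose and 0 fell, the median was 2.31 and 21 differences were positive. H2-D1, a classical heavy chain, read 14.11 and 13.36 in KO hearts, against 10.88 and 11.30 in WT hearts (6.23-fold). Among non-classical heavy chains, H2-T10 read 9.77 and 9.07 in KO hearts, against 5.78 and 6.16 in WT hearts (10.9-fold, 3.45 ± 0.33, adjusted p = 0.000937). H2-Q6 read 9.69 and 8.54 in KO hearts, against 4.97 and 6.15 in WT hearts. Heavy-chain genes are near copies of each other, and their single values are uncertain for that reason. B2m, the invariant light chain, chosen after its values were seen, read 15.46 and 14.98 in KO hearts, against 12.90 and 13.08 in WT hearts (4.68-fold, 2.23 ± 0.22, adjusted p = 0.00125), close to the top of the signal range. The immunoproteasome subunit gene Psmb8 read 12.33 and 11.05 in KO hearts, against 8.77 and 8.87 in WT hearts (2.87 ± 0.58, adjusted p = 0.046). Of 11 measured constitutive proteasome genes, by contrast, 0 were called (1 at an unadjusted p under 0.05), with list means of 12.17 and 12.24 on the KO arrays, against 12.28 and 12.15 on the WT arrays. The class I count was 6 without KO array 1, 15 without KO array 2, 4 without WT array 1 and 7 without WT array 2. H2-T10 and B2m kept their calls in all 4 of these fits, while H2-D1 and Psmb8 kept theirs only without KO array 2.

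Class II presentation serves CD4 T cells. Of 11 measured genes 0 were called by limma (8 at an unadjusted p under 0.05), although all 11 differences were positive with a median of 1.26. In 10 both KO arrays lay above both WT arrays, where 18.9% of all features did. Cd74, the invariant chain, had 12.71 and 11.39 in KO hearts, against 11.01 and 10.48 in WT hearts (1.30 ± 0.49, adjusted p = 0.334). The KO arrays were further apart from each other than KO array 2 was from WT array 1.

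**Figure D2:**
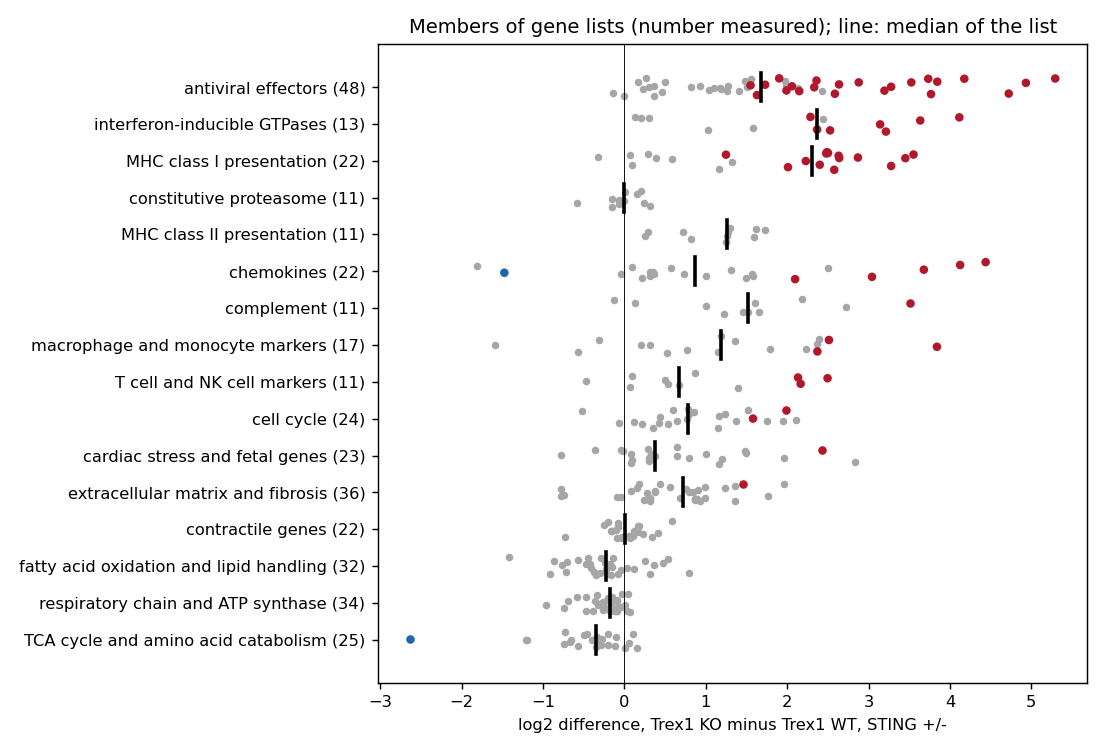
Log2 difference (Trex1 KO minus Trex1 WT, STING +/-; horizontal axis) of each measured member of 16 gene lists, red for called rises, blue for called falls and grey for members not called, with the list's median as a black line. Interferon-related lists lie to the right, class II genes lie right of 0 without a call, and contractile and metabolic lists lie around or slightly left of 0.

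Chemokine genes included both rises and a fall. Of 22 measured (26 listed), 5 rose, 1 fell, and the median was 0.87. Cxcl9 and Cxcl10 attract activated T cells. Cxcl9 read 11.90 and 10.85 in KO hearts, against 7.80 and 7.59 in WT hearts (12.8-fold, adjusted p = 0.00141). Cxcl10 read 9.59 and 7.63 in KO hearts, against 4.46 and 4.51 in WT hearts, at least 11.6-fold higher in KO hearts on this probe. Another probe of Cxcl10 gave 1.55 ± 0.53, so the size depends on the probe. Ccl5, which attracts T cells and monocytes, read 10.15 and 8.98 in KO hearts, against 5.15 and 5.11 in WT hearts (21.7-fold). Ccl4 and Ccl8, both leukocyte attractants, rose as well. Ccl4 read 9.14 and 7.42 in KO hearts, against 5.49 and 4.98 in WT hearts, and another probe of it gave 1.29 ± 0.36. Ccl8 read 7.28 and 6.99 in KO hearts, against 5.44 and 4.64 in WT hearts. Ccl21a, a homeostatic chemokine of lymphatic vessels, fell by 1.48 on the log2 scale, with 8.93 and 8.62 in KO hearts, against 10.43 and 10.06 in WT hearts. Cxcl9 and Ccl5 kept their call with any 1 array left out, Cxcl10 only without KO array 2, and Ccl4 and Ccl8 in 2 of these 4 fits. Rises numbered 3 without KO array 1, 8 without KO array 2, 3 without WT array 1 and 2 without WT array 2, and Ccl21a was called in none of these fits.

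Other soluble mediators were called singly. Of 19 measured cytokines (27 listed) 1 rose and 0 fell; it was Tnfsf13b, the B cell survival factor BAFF, with 7.88 and 7.31 in KO hearts, against 6.19 and 5.54 in WT hearts (adjusted p = 0.0496), a call that none of the fits without 1 array made. Its 2 other probes gave -0.08 ± 0.28 and 1.45 ± 0.34. Of 11 measured complement genes (18 listed) 1 rose and 0 fell, with a median of 1.52 and 10 positive differences (6902 of all 15561 features). This was Cfb, factor B of the alternative pathway, with 8.78 and 7.49 in KO hearts, against 4.57 and 4.68 in WT hearts, at least 8.33-fold higher in KO hearts (3.51 ± 0.40, adjusted p = 0.00221). Among 17 measured NF-kappaB targets and subunits 0 were called (6 at an unadjusted p under 0.05), with a median of 0.44. Of 15 measured genes of cell death and the inflammasome 2 rose. Casp1, the inflammasome protease, read 9.98 and 9.38 in KO hearts, against 7.71 and 7.07 in WT hearts (2.29 ± 0.31, adjusted p = 0.00696). Mlkl, the effector of necroptosis, read 8.35 and 7.74 in KO hearts, against 6.70 and 6.16 in WT hearts, and another probe of it gave -0.36 ± 0.29. Cfb was called whichever array was left out. Casp1 and Mlkl both lost their call without KO array 1 and without WT array 2.

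A minority of the immune cell markers were called. Among the macrophage and monocyte markers, 17 were measured, of which 3 were called higher and 0 lower, at a median of 1.18; the list's mean level was 8.57 and 8.44 on the KO arrays, against 7.44 and 7.16 on the WT arrays. Fcgr4, an activating antibody receptor, read 10.03 and 8.97 in KO hearts, against 5.50 and 5.82 in WT hearts (14.3-fold). Fcgr1, the high-affinity antibody receptor, read 7.33 and 6.87 in KO hearts, against 5.03 and 4.44 in WT hearts, at least 4.07-fold higher in KO hearts. Mpeg1, a pore-forming protein of phagocytes, read 10.00 and 8.64 in KO hearts, against 6.74 and 6.87 in WT hearts. Another probe of Mpeg1 gave 0.40 ± 0.38. Both antibody receptor genes are also interferon-inducible. By value, 14 of the 17 differences were positive. The remaining ones were those of the resident macrophage markers Cd163, Lyve1 and Timd4, chosen after their values were seen. Their differences were negative and not called (-1.60, -0.57 and -0.31). Cd163, a haemoglobin scavenger receptor, had 5.04 and 8.38 in KO hearts, against 8.51 and 8.10 in WT hearts, so its difference rested on KO array 1; without KO array 2 it was called lower (-3.27, adjusted p = 0.0208). The list had 2 rises without KO array 1, 6 without KO array 2, 2 without WT array 1 and 2 without WT array 2, and 1 fall, without KO array 2; Fcgr4 and Fcgr1 were called in all 4 of these fits and Mpeg1 only without KO array 2.

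Of 11 measured T cell and NK cell markers (21 listed) 3 rose and 0 fell, with a median of 0.67 and list means of 7.02 and 6.35 on the KO arrays, against 5.83 and 5.64 on the WT arrays. A marker could count as measured through Trex1 KO arrays alone, which favours positive differences. With no detection filter 17 were measured, 1 rose and the median was 0.196, in a fit that called 102 of 29453 features. Cd3d and Cd3g, subunits of the T cell receptor complex, were above background on both KO arrays and on neither WT array. Cd3d read 6.99 and 6.14 in KO hearts, against 4.45 and 4.41 in WT hearts (at least 2.81-fold higher in KO hearts). Cd3g read 7.34 and 5.91 in KO hearts, against 4.38 and 4.54 in WT hearts. Nkg7, a granule protein of cytotoxic lymphocytes, read 7.80 and 6.93 in KO hearts, against 5.20 and 4.55 in WT hearts (2.50 ± 0.33, adjusted p = 0.00622). Among 4 measured B cell and plasma cell markers and 5 neutrophil markers 0 were called (1 and 0 at an unadjusted p under 0.05). Of 8 dendritic cell markers 1 rose, Bst2, which is also an antiviral effector, and of 7 mast cell markers 1, the histamine-forming enzyme gene Hdc, while the median of the mast cell list was -0.16. The part of these cells in the rises above was not tested. Without KO array 1 the T cell and NK cell list had 0 rises, without KO array 2 it had 5, without WT array 1 it had 1 and without WT array 2 it had 0.

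Most cell cycle genes had positive differences. Of 24 measured cell cycle genes (30 listed) 2 rose and 0 fell, with a median of 0.78 and 22 positive differences (6902 of all 15561 features). Cdk1, the mitotic kinase, read 7.87 and 6.66 in KO hearts, against 5.36 and 5.19 in WT hearts (3.97-fold, adjusted p = 0.0301). Nusap1, a spindle protein, read 7.34 and 6.80 in KO hearts, against 5.39 and 5.59 in WT hearts (2.99-fold, adjusted p = 0.0455). The list's median above the WT mean was 1.32 on KO array 1 and 0.34 on KO array 2. There were 7 called rises without KO array 2 and 0 in each of the 3 other fits that left out 1 array.

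Most rises were larger on KO array 1. Of the 177 risen features 168 (94.9%) were brighter on KO array 1 than on KO array 2, where 47.8% of all features were. Their median level above the WT mean was 2.68 on KO array 1 and 1.83 on KO array 2, and the median gap between the KO arrays was 0.88 against 0.01 between the WT arrays. KO array 2 is also the array with atrial transcripts; whether that moved the gap was not tested. The median absolute gap over all features was 0.24 between the KO arrays and 0.27 between the WT arrays.

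Few heart muscle genes were called. Of 22 measured contractile genes 0 were called (1 at an unadjusted p under 0.05, as were 1821 of all 15561 features), with a median of 0.01. Of 22 measured genes of calcium handling and channels 0 were called (2 at an unadjusted p under 0.05), with a median of -0.14. The 8 ventricular cardiomyocyte markers had list means of 12.89 and 12.79 on the KO arrays, against 12.98 and 12.79 on the WT arrays, as a heart sample should carry. Of 23 measured cardiac stress and fetal genes 1 rose and 0 fell, with a median of 0.37 and 19 positive differences (6902 of all 15561 features). It was Nppa, atrial natriuretic peptide, which read 15.35 and 15.30 in KO hearts, against 12.87 and 12.94 in WT hearts (5.36-fold, 2.42 ± 0.22, adjusted p = 0.000912, and called with any 1 array left out). Nppa lay at 14.08 to 15.71 on the other 8 arrays, KO and WT alike, so the WT hearts of this comparison had the lowest 2 values of all 12. Its relative Nppb, chosen after its values were seen, had 13.80 and 13.41 in KO hearts, against 12.01 and 12.22 in WT hearts (adjusted p = 0.153). Acta1, the skeletal actin of stressed cardiomyocytes, had 14.40 and 14.64 in KO hearts, against 13.14 and 12.94 in WT hearts (adjusted p = 0.344). In both the KO arrays lay above the WT arrays, without a call.

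Most extracellular matrix genes had positive differences. Of 36 measured (41 listed) 31 had a positive difference, where 6902 of all 15561 features did. In 24 both KO arrays lay above both WT arrays, where 18.9% of all features did. The median was 0.72, and 1 gene rose and 0 fell. It was Mmp2, a gelatinase made by fibroblasts, with 11.11 and 10.61 in KO hearts, against 9.27 and 9.55 in WT hearts (2.73-fold, adjusted p = 0.0419); the call was lost without KO array 1, without WT array 1 and without WT array 2. Col1a1, the main fibrillar collagen gene, chosen after its values were seen, had 8.49 and 7.65 in KO hearts, against 6.87 and 7.28 in WT hearts (0.99 ± 0.36, adjusted p = 0.313). Fibroblast markers had a median of 0.43 with 0 of 12 called (2 at an unadjusted p under 0.05), and endothelial markers a median of 0.14 with 0 of 17 called (0 at an unadjusted p under 0.05).

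A different stress gene stood out among 22 genes of the heat shock and unfolded protein response, of which 1 rose. Ddit3, the transcription factor CHOP of the integrated stress response, read 10.69 and 10.37 in KO hearts, against 8.14 and 8.01 in WT hearts (5.48-fold, 2.45 ± 0.23, adjusted p = 0.000913), and it was called with any 1 array left out. The list as a whole had a median of -0.32, and its mean level was 9.67 and 10.01 on the KO arrays, against 9.43 and 10.46 on the WT arrays, WT array 2 being the highest. Immediate early genes ran alike, with list means of 7.90 and 7.45 on the KO arrays, against 7.39 and 8.56 on the WT arrays, and 0 of 19 called (0 at an unadjusted p under 0.05).

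Genes of energy metabolism had medians below 0. At an unadjusted p under 0.05 there were 1821 of all 15561 features. Of 32 measured genes of fatty acid oxidation and lipid handling 0 were called (8 at an unadjusted p under 0.05), with a median of -0.23. Of 34 measured respiratory chain and ATP synthase genes 0 were called (5 at an unadjusted p under 0.05), with a median of -0.18 and 4 positive differences, and in 20 of them both KO arrays lay below both WT arrays, where 25.9% of all features did. Of 25 measured genes of the citric acid cycle and amino acid catabolism 0 rose and 1 fell, with a median of -0.35 and 17 below both WT arrays on both KO arrays. The gene that fell was Bckdhb, a subunit of the enzyme that commits branched-chain amino acids to breakdown, described below.

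The 20 features that fell include few genes of a shared role. Retnla, a secreted product of alternatively activated macrophages, read 4.92 and 5.94 in KO hearts, against 9.04 and 8.41 in WT hearts (9.80-fold lower in KO hearts, -3.29 ± 0.63, adjusted p = 0.0383). Fam131a read 8.33 and 8.42 in KO hearts, against 10.05 and 9.70 in WT hearts. Cacna1g, a T-type calcium channel, read 4.88 and 5.12 in KO hearts, against 6.14 and 6.06 in WT hearts, and another probe of it gave -0.24 ± 0.14. Laptm4b, C1qtnf4, Slc9a2 and Myh14 fell by 1.32, 1.22, 1.19 and 1.02 on the log2 scale. None of these 7 was called in all fits that left out 1 array: Retnla, Cacna1g and Slc9a2 held only without KO array 2, and the other 4 in no such fit.

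The falls gathered on the chromosome that carries Trex1. Of the 19 lower genes with a symbol 8 are on chromosome 9, where 688 of 12060 placed features lie (5.7%). On chromosome 9, 1.16% of features fell, against 0.0967% elsewhere (11 of 11372). The next highest share was that of chromosome 16, at 0.763% (3 of 393). In the order of measured genes along the chromosome, 6 of the 8 lie before Trex1 and 2 after it. Within 100 measured genes of Trex1 lie 5 of the 8, where 199 of the 688 measured chromosome 9 genes lie. Since the strain background is mixed, sequence near the Trex1 locus and loss of Trex1 itself cannot be told apart as the source of a difference there.

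Lrrc2, a leucine-rich repeat protein gene 21 measured genes from Trex1, had the largest difference of any called gene. It read 4.43 and 6.65 in KO hearts, against 11.68 and 11.71 in WT hearts (-6.16 ± 0.56, adjusted p = 0.000912). On STING +/+ it read 4.60 and 4.54 in KO hearts, against 4.70 and 4.57 in WT hearts, near background in both. On STING -/- it read 11.02 and 10.25 in KO hearts, against 11.44 and 10.88 in WT hearts, bright in both. Its level thus did not follow the Trex1 label across the series. Epm2aip1, a neighbour 26 measured genes from Trex1, showed the same arrangement, with 5.08 and 5.37 in KO hearts, against 8.26 and 8.85 in WT hearts (-3.33 ± 0.27, adjusted p = 0.000501). On STING +/+ Epm2aip1 read 4.63 and 4.75 in KO hearts, against 5.34 and 4.68 in WT hearts, and on STING -/- it read 8.33 and 8.38 in KO hearts, against 9.33 and 9.28 in WT hearts. Of its 4 other probes, the differences on STING +/- were -0.78, -1.17, -0.23 and 0.17, so the size depends on the probe.

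Bckdhb, 155 measured genes before Trex1, read 7.55 and 8.20 in KO hearts, against 10.56 and 10.46 in WT hearts (6.21-fold lower in KO hearts, adjusted p = 0.00175). Lrrc2, Epm2aip1 and Bckdhb kept their calls with any 1 array left out. The other named falls there were Ube2cbp (-2.22 ± 0.29), Nmnat3 (-1.68 ± 0.24), Rpl29 (-1.48 ± 0.29) and Pik3r4 (-1.47 ± 0.24), together with the predicted gene 6430571L13Rik (-1.90 ± 0.32). Nmnat3 encodes a mitochondrial NAD-forming enzyme, Rpl29 a ribosomal protein and Pik3r4 the regulatory subunit of the class III phosphoinositide kinase. Nmnat3 was called only without KO array 2, Ube2cbp without KO array 2 or without WT array 2, and Rpl29 and Pik3r4 in none of the fits that left out 1 array. By the sign of the difference alone, all 8 genes were also lower in KO hearts on STING -/-, none of them called there, and 5 of the 8 on STING +/+. These signs include small differences. The KO and WT arrays of Lrrc2 overlapped on STING -/- and lay near background on STING +/+, and those of Epm2aip1 overlapped on STING +/+.

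**Figure D3:**
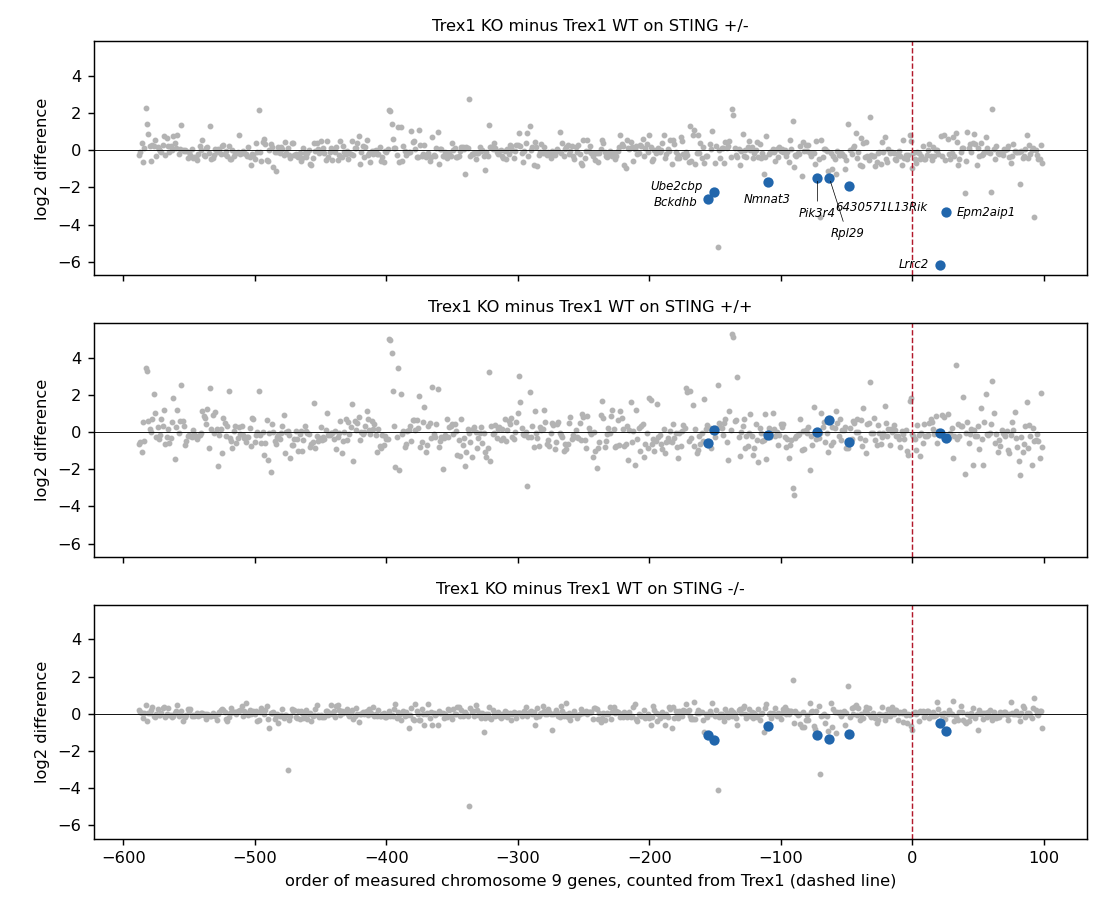
Log2 difference (Trex1 KO minus Trex1 WT; vertical axis) of the 688 measured chromosome 9 features against their order from Trex1 (horizontal axis, in measured genes), on STING +/-, +/+ and -/- from top to bottom, with the 8 genes called lower on STING +/- in blue. These 8 lie between 155 genes before and 26 genes after Trex1, and are all below 0 on STING -/-.

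A pair of chromosome 9 genes, chosen after their values were seen, differed by more than most called falls without being called. Me1, cytosolic malic enzyme, had 4.47 and 4.86 in KO hearts, against 9.83 and 9.90 in WT hearts (-5.20, adjusted p = 0.0821). Across the other 8 arrays it was at 4.82 and 4.68 in KO hearts, against 8.18 and 9.50 in WT hearts, on STING -/-, and at 9.80 and 4.71 in KO hearts, against 4.74 and 4.69 in WT hearts, on STING +/+. The wide gap between the KO arrays on STING +/+ enters the variance that the fit shares among groups. Wdr82 had 4.57 and 4.68 in KO hearts, against 8.26 and 8.19 in WT hearts (-3.60, adjusted p = 0.0965), and also split within both STING +/+ groups. Me1 was called in a fit of the STING +/- arrays alone, as was Wdr82.

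**Figure D4:**
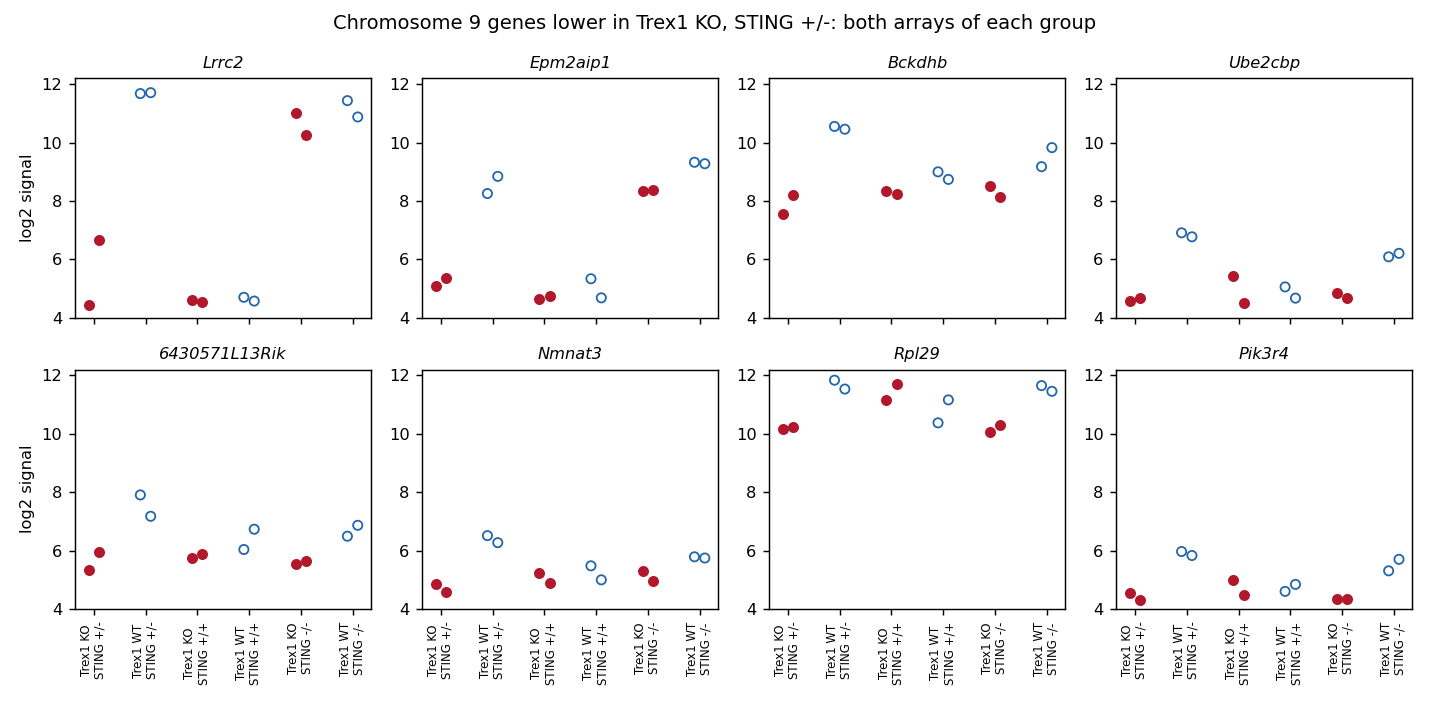
Log2 signal (vertical axis) of the 8 chromosome 9 genes called lower on STING +/-, 1 panel each, on both arrays of the 6 genotype groups (horizontal axis; filled red Trex1 KO, open blue Trex1 WT). Lrrc2 and Epm2aip1 are low in both Trex1 states on STING +/+ and high in both on STING -/-, and in all 8 panels the Trex1 WT, STING +/- arrays lie above the Trex1 KO, STING +/- arrays.

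How far these differences depend on the STING genotype was asked with the difference of the Trex1 effect between STING states, which shares no arrays between the 2 effects compared. Over the 177 features that rose on STING +/-, the median difference was 2.28 there, 3.58 on STING +/+ and -0.01 on STING -/-. Those features were chosen by the first of these, so the 3 medians are a description. Of the 177, 175 were also called higher on STING +/+, where 11.8% of all features were. On STING -/-, 2 features were called, both lower. Of the 20 lower features 10 were also called lower on STING +/+, where 9.93% of all features were; their median was -1.48 on STING +/-, -0.59 on STING +/+ and -0.37 on STING -/-.

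Against STING -/-, 40 features (0.257%) differed in their Trex1 effect, 38 of them more positive on STING +/- (0.244%) and 2 more negative (0.0129%). This difference and the rises rest on the same STING +/- arrays, so their overlap is a description. Of the 38, 36 were among the rises. They were led by Plac8, with a Trex1 effect of 5.53 on STING +/- and -0.07 on STING -/- (difference 5.60 ± 0.78, adjusted p = 0.0223), and Apol9a, with 5.29 and -0.21 (difference 5.50 ± 0.45, adjusted p = 0.00169). Isg15, Usp18, Ifit3, Irf7, Ccl5, Igtp, Cxcl9, Cfb, Nppa and Ddit3 were also called. The 2 more negative ones were Lrrc2 and Epm2aip1. The count of 40 was 14 without KO array 1, 116 without KO array 2, 5 without WT array 1 and 5 without WT array 2.

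Against STING +/+, 299 features (1.92%) differed in their Trex1 effect, 82 of them more positive on STING +/- (0.527%) and 217 more negative (1.39%). Of the 217, 212 were higher in Trex1 KO on STING +/+, and of the 82, 81 were lower there. Of the 177 rises, which rest on the same STING +/- arrays, 21 were called in this difference. The Trex1 KO, STING +/+ array 2 read Trex1 in the WT range (6.76 on ILMN_3131766) and differs from its partner in sex markers; without it 248 features were called.

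By the listed genes, 2 of 23 cardiac stress genes, 5 of 22 chemokines and 1 of 17 macrophage and monocyte markers were more negative in this difference, and 1 of these markers was more positive. Nmrk2, a muscle nicotinamide riboside kinase induced in failing hearts, had 7.44 and 8.56 in KO hearts, against 7.69 and 7.03 in WT hearts, on STING +/-, an effect of 0.64 where it was 5.34 on STING +/+ (difference -4.70 ± 0.61, adjusted p = 0.0118). Krt18, a keratin, was at 4.75 and 4.45 in KO hearts, against 4.43 and 4.38 in WT hearts, near background, where its effect on STING +/+ was 4.06 (difference -3.87 ± 0.32). Sprr1a, a stress-induced protein of cardiomyocytes, rose on STING +/- by 1.21 ± 0.22 (adjusted p = 0.0271) and by 4.93 on STING +/+. The call of Sprr1a was lost in every fit that left out 1 array.

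The monocyte-attracting chemokine gene Ccl7 had 9.79 and 7.86 in KO hearts, against 6.93 and 7.57 in WT hearts (1.58, against 5.45 on STING +/+). The eosinophil-attracting Ccl11 had 5.44 and 6.36 in KO hearts, against 7.89 and 7.55 in WT hearts, a difference of -1.82 (adjusted p = 0.143), where it was 2.11 on STING +/+. Acod1, which makes itaconate in activated macrophages, had 6.34 and 5.00 in KO hearts, against 4.38 and 4.43 in WT hearts (1.27, against 4.68 on STING +/+). Class II presentation had 5 of its 11 genes more negative in this difference and a median effect of 1.26 on STING +/- and 4.07 on STING +/+. Of the T cell and NK cell markers 5 of 11 were more negative too, with medians of 0.67 and 2.79. In the other direction, 1 of 22 contractile genes and 2 of 22 genes of calcium handling and channels were more positive. Kcnip2, a subunit of the transient outward potassium channel, had 8.46 and 8.56 in KO hearts, against 8.46 and 8.74 in WT hearts (-0.09, against -3.14 on STING +/+). Pdp2, a phosphatase that activates pyruvate dehydrogenase, had -0.17 against -3.33, and Scara5, a ferritin receptor of fibroblasts, had -0.17 against -3.56. Ephb1, an ephrin receptor gene on chromosome 9, ran in opposite directions, with 8.31 and 8.96 in KO hearts, against 7.07 and 7.00 in WT hearts, on STING +/- (1.60 ± 0.36, adjusted p = 0.0802) and an effect of -3.00 on STING +/+. The count of 299 was 307 without KO array 1, 26 without KO array 2, 25 without WT array 1 and 119 without WT array 2.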

How the data were processed

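Per the labels' protocols, total heart RNA was extracted with an RNeasy kit and labelled as biotinylated cRNA. The authors deposited non-normalized intensity values for 45281 probes on 12 arrays, each with a score that its header calls a detection p-value; the score rises with the signal, and 1 minus it served as the detection p. Processed log2 values, centred per probe, were deposited too; over 9808 bright probes these differed by at most 0.0146 from quantile-normalized log2 signals centred likewise. No source used here names the scanner software.

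With limma 3.58.1 in R 4.3.3, intensities were normalized by neqc (offset 16). The filter kept 22810 probes detected (p under 0.05) on 2 or more of the 12 arrays. A probe could thus pass through Trex1 KO arrays alone. The brightest probe stood for a gene, which left 15561 features, 12080 with 1 symbol from the platform annotation. Of the called genes, 72 had other detected probes, 97 in number, of which 7 had the opposite direction. Others had the same direction with a smaller difference, and not all of these are given. Group means of all 12 arrays (6 groups of 2, 6 residual degrees of freedom) were fitted with lmFit and eBayes, adjusted by Benjamini-Hochberg over all features; "called" means adjusted p under 0.05. The pipeline was tested on simulated data. Where a probe was above background on 0 arrays of a group, the fold is a bound ("at least"), taken against the higher, per array, of the lowest signal above background and the probe's own. Gene order came from the GRCm38.p6 gene table; the files name no build.

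The comparison, the gene lists and the rule for named genes were chosen with earlier results of these data known. That rule took Trex1 and Sting1, the 15 largest called rises and up to 15 falls whose arrays do not overlap, up to 5 called members a list (where none was called, up to 2), and the largest differences between STING states; other genes are named as chosen after their values were seen. Alternatives were quantile normalization, the authors' processed values, 2 other filters, eBayes with a trend and robust prior, weights per array, another probe per gene, fits of fewer groups, and fits without single arrays; leaving out both arrays that stood apart, and single Trex1 KO arrays of the other STING states, was added after the data were seen.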

Additional observations from a re-analysis of the deposited data

Results flagged for a closer look

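The results below concern genes named in the report whose Trex1 effect on STING +/- differed from that on another STING state by a test of the difference itself (limma interaction contrast, Benjamini-Hochberg adjusted p under 0.05 over all features). Each value is the effect on STING +/- minus the effect on the other state, on the log2 scale, with its standard error where given.

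Against STING -/-, the largest positive values were 5.60 for Plac8, 5.50 for Apol9a, 4.86 for Usp18, 4.70 for Isg15, 4.68 for Ccl5 and 4.67 for Apol9b. Next came 4.44 for Igtp, 4.37 for Irf7, 4.36 for Ifit3, 4.08 for Ifi27, 3.91 for Ifit2 and 3.87 for Cxcl9. Smaller values were 3.72 for H2-T10, 3.71 for Oasl1, 3.68 for Phf11a, 3.51 for Cfb, 2.52 for B2m and 2.53 for Fcgr1. Nppa had 2.76 ± 0.31 and Ddit3 2.39 ± 0.32. For Nppa the 2 WT hearts on STING +/- hold the lowest values of the series, as given above. The negative values were -5.63 ± 0.80 for Lrrc2 and -2.38 ± 0.37 for Epm2aip1.

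Against STING +/+, the chemokine genes had -3.93 (Ccl11), -3.87 (Ccl7), -3.77 (Ccl4) and -3.10 (Ccl8). Lymphocyte markers had -2.82 (Cd3d), -2.81 (Cd3g) and -2.48 (Nkg7), and the myeloid genes Acod1 and Fcgr1 had -3.41 and -1.95. Stress-induced genes of muscle and cytoskeleton had -4.70 (Nmrk2), -3.87 (Krt18) and -3.73 (Sprr1a). Chromosome 9 genes had -6.09 (Lrrc2), -3.01 (Epm2aip1), -2.33 (Ube2cbp), -2.15 (Rpl29) and -2.06 (Bckdhb). Positive values were 4.60 ± 0.51 for Ephb1, 3.39 ± 0.36 for Scara5, 3.16 ± 0.53 for Pdp2 and 3.05 ± 0.59 for Kcnip2. In this comparison the STING +/+ arrays of the 2 Trex1 states also differ in sex markers.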

How the results depend on the processing

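The counts depend on single arrays more than on the normalization. For Trex1 KO against WT on STING +/-, 52 to 316 features were called with 1 of the 4 arrays left out, against 197 with all, of which 49 to 296 were higher (177 with all) and 3 to 20 lower (20 with all). Without both arrays that stood apart, 5 features were lower. The rises numbered 116 with quantile normalization and 114 with the authors' processed values. With no filter 102 were called and 85 higher, and with only the groups compared 112 and 95. Without the 2 groups whose arrays differ in Xist, 52 were lower. For the difference to STING +/+, 299 features were called with all arrays and 25 to 307 with 1 STING +/- array left out; there were 194 with no filter, 110 with a stricter filter (4 or more arrays detected at p under 0.01), 105 with array weights and 23 with only the groups compared. It was higher with quantile normalization (425), the authors' processed values (428) and the trend with a robust prior (413), where 141, 143 and 132 were more positive, against 82. For the difference to STING -/-, 40 were called with all arrays and 5 to 116 with 1 left out; there were 21 with quantile normalization, 21 with the authors' processed values, 5 with no filter, 73 with array weights, 23 with only the groups compared and 62 without the Trex1 KO, STING -/- array 2. The no-filter fit tests 29453 features and the fit of the groups compared has fewer arrays; for the other settings the cause was not tested.

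Of 71 called genes named here, 24 were called in every fit that left out 1 array, and none of the called genes changed direction under any alternative run. Some differences that were not called did turn, among them those of Cd163 and Hnrnpa2b1, which were not near 0 with all arrays. With 1 array left out, Pdp2 ranged from -0.589 to 0.241, Scara5 from -0.571 to 0.235, Kcnip2 from -0.224 to 0.054, Xist from -0.078 to 0.451, Cd163 from -3.268 to 0.077, Lyve1 from -1.329 to 0.195 and Hnrnpa2b1 from -0.148 to 2.892; without both arrays that stood apart Hnrnpa2b1 was at -0.194 and Xist at -0.062. No paired analysis was possible because the replicate numbers were given in accession order and pair no samples. With 2 arrays a group, genes close to background and changes of about 1 on the log2 scale are the least secure.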

Other observations

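Several strongly risen genes lie outside the groups described above and were chosen after their values were seen. Mthfd2, a mitochondrial enzyme of folate metabolism that is a target of the integrated stress response, read 10.23 and 9.63 in KO hearts, against 6.74 and 6.94 in WT hearts (8.53-fold, 3.09 ± 0.52, adjusted p = 0.0186). Cd274, the checkpoint ligand PD-L1, read 10.42 and 9.25 in KO hearts, against 6.86 and 7.41 in WT hearts (6.52-fold, adjusted p = 0.0201). Ubd, a ubiquitin-like modifier, read 9.07 and 7.15 in KO hearts, against 4.79 and 4.61 in WT hearts, at least 8.21-fold higher in KO hearts. Ch25h, which makes the oxysterol 25-hydroxycholesterol, read 9.42 and 7.37 in KO hearts, against 5.63 and 5.85 in WT hearts (6.27-fold, adjusted p = 0.0435).

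In these genes, too, KO array 1 was the brighter and the KO arrays did not overlap the WT arrays. Their differences were 5.25, 3.54, 5.94 and 5.96 on STING +/+ and -0.16, 0.18, 0.21 and -0.47 on STING -/-, in the order Mthfd2, Cd274, Ubd, Ch25h. Lgals3bp, a secreted glycoprotein gene counted above among the antiviral effectors, rose too, with 12.89 and 11.50 in KO hearts, against 8.45 and 8.41 in WT hearts (13.6-fold, adjusted p = 0.0054). With 1 array left out, Ubd and Lgals3bp were called in 2 of 4 fits, and Mthfd2, Cd274 and Ch25h in 1 of 4.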
